A study of Rattus norvegicus with 6 samples.

Results

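The genes described here encode the machinery that builds an autophagosome and fuses it with the lysosome. They were listed by name from what their proteins are known to do, by a rule that uses no measured value, and ordered into 5 steps. These were initiation, the phosphatidylinositol 3-kinase (PI3K) complex, lipid transfer, conjugation and fusion. Earlier results of these data were known when the list was chosen. Of the 43 genes of the list, 42 were found by symbol among the 17648 rows of the expression matrix, and ATG4A was not listed there. The steps held 5, 6, 9, 9 and 13 of these genes in the order given.

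Autophagy encloses cytoplasm in a double membrane, the autophagosome, and delivers it to the lysosome for breakdown. The ULK kinase complex starts the process, the PI3K complex marks the membrane with phosphatidylinositol 3-phosphate (PI3P), and lipid transfer proteins and scramblases let the membrane grow. A pair of ubiquitin-like conjugation systems then attaches ATG8 proteins such as LC3 to the membrane, after which tethers and SNARE proteins fuse the closed vesicle with the lysosome. Neurons depend on this route because they do not divide and cannot dilute damaged proteins and organelles. For the injured spinal cord the paper cites raised autophagy markers, but also that most data point to inhibited flow, with differences between species and injury models.

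By the paper the cells were spinal cord neurons taken from newborn Sprague-Dawley rats (neonatal, by the labels). They were cultured for 3 days before exposure, with cytosine arabinoside (Ara-C) added against dividing cells. The Glu + siR-Con group held 3 libraries of cells given a control siRNA (small interfering RNA), and the Glu + siR-GAL3 group held 3 libraries of cells transfected with an siRNA against GAL3, the gene of galectin-3, listed as LGALS3. By the paper and the design text both groups were exposed to glutamate, at 10 μM for 1 h with 16 h of culture afterwards. The comparison was thus meant to ask what silencing GAL3 changed in injured neurons. The sample labels disagree on this point, giving saline (0 μM glutamate) to the siR-Con libraries and glutamate to the siR-GAL3 libraries, and if they are right then GAL3 silencing and glutamate cannot be told apart. The labels also speak of a GAL3 knockout, whereas the paper describes an siRNA, which leaves the gene in place. No source used here says whether the replicates came from separate cultures or animals, so every p-value measures only the spread between these libraries.

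The values were linear expression values that the authors derived from FPKM, fragments scaled to transcript length and library total, so levels can be compared between genes per length. How deeply the libraries were sequenced is unknown, and SDs describe a spread that the authors' correction within groups had already acted on. LGALS3 ranged from 54.4 to 77.4 in siR-Con and from -1.64 to 32.3 in siR-GAL3, where replicate 2 had the highest value. Exactly equal values joined siR-Con replicate 1 with siR-GAL3 replicate 1, and siR-Con replicates 2 and 3 with siR-GAL3 replicate 3, while siR-GAL3 replicate 2 belonged to no such set. On the first principal component, which held 65.2% of the variance, siR-GAL3 replicate 2 lay at 27.9 and the other libraries between -8.52 and -1.94. Results for the autophagy machinery are therefore also given without that library and within the sets that hold both groups.

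The neuronal label was checked against marker genes. Only 5 of the 15 neuronal markers listed had a mean of at least 1, RBFOX3, the gene of the neuronal nuclear protein NeuN, lay between 0.30 and 0.43, and CHAT, ISL1 and SLC17A6 were at or near 0, although MAP2 lay between 13.1 and 19.0. The summed level of the 15 neuronal markers was 34.1 to 39.2 in siR-Con and 32.4 to 39.4 in siR-GAL3. The 11 astrocyte markers summed to 937 to 1077 in siR-Con and 811 to 875 in siR-GAL3, and the 12 oligodendrocyte lineage markers to 1136 to 1205 and 1151 to 1496. The 15 microglia and macrophage markers summed to 138.6 to 139.3 in siR-Con and 186.5 to 205.2 in siR-GAL3, and the 9 fibroblast and vessel markers to 44.2 to 51.6 and 34.1 to 39.1. In every library the neuronal sum lay far below the astrocyte, oligodendrocyte lineage and microglia sums. These markers thus do not bear out the neuronal label, and the RNA cannot be read as that of neurons alone. At an unadjusted limma p under 0.05, which 4.41% of all genes tested passed as higher in siR-GAL3 and 4.25% as lower, 8 of 14 tested microglia and macrophage markers and 1 of 5 neuronal markers were higher, 4 of 10 astrocyte markers and 3 of 5 fibroblast and vessel markers were lower, and 0 of 11 oligodendrocyte lineage markers passed. In bulk RNA fewer cells of a type and less RNA per cell cannot be told apart, and the part of these marker differences in the autophagy genes was not tested.

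The autophagy machinery was expressed at low to moderate levels in both groups, and no difference in it between siR-GAL3 and siR-Con passed correction for multiple tests. In the main limma fit the same held for all 8495 genes tested, LGALS3 included. Mean levels ran from 0.483 for ATG10 to 46.1 for RAB7A, with a median of 2.62, against a median of 3.06 over all genes tested. RAB7A, ATG3 at 11.5 and BECN1 at 11.4 were the only members with a mean of at least 10, and 19 members had a mean under 2. No member had a value below 0 in any library. The plot of levels by step shows these values library by library.

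**Figure D1:**
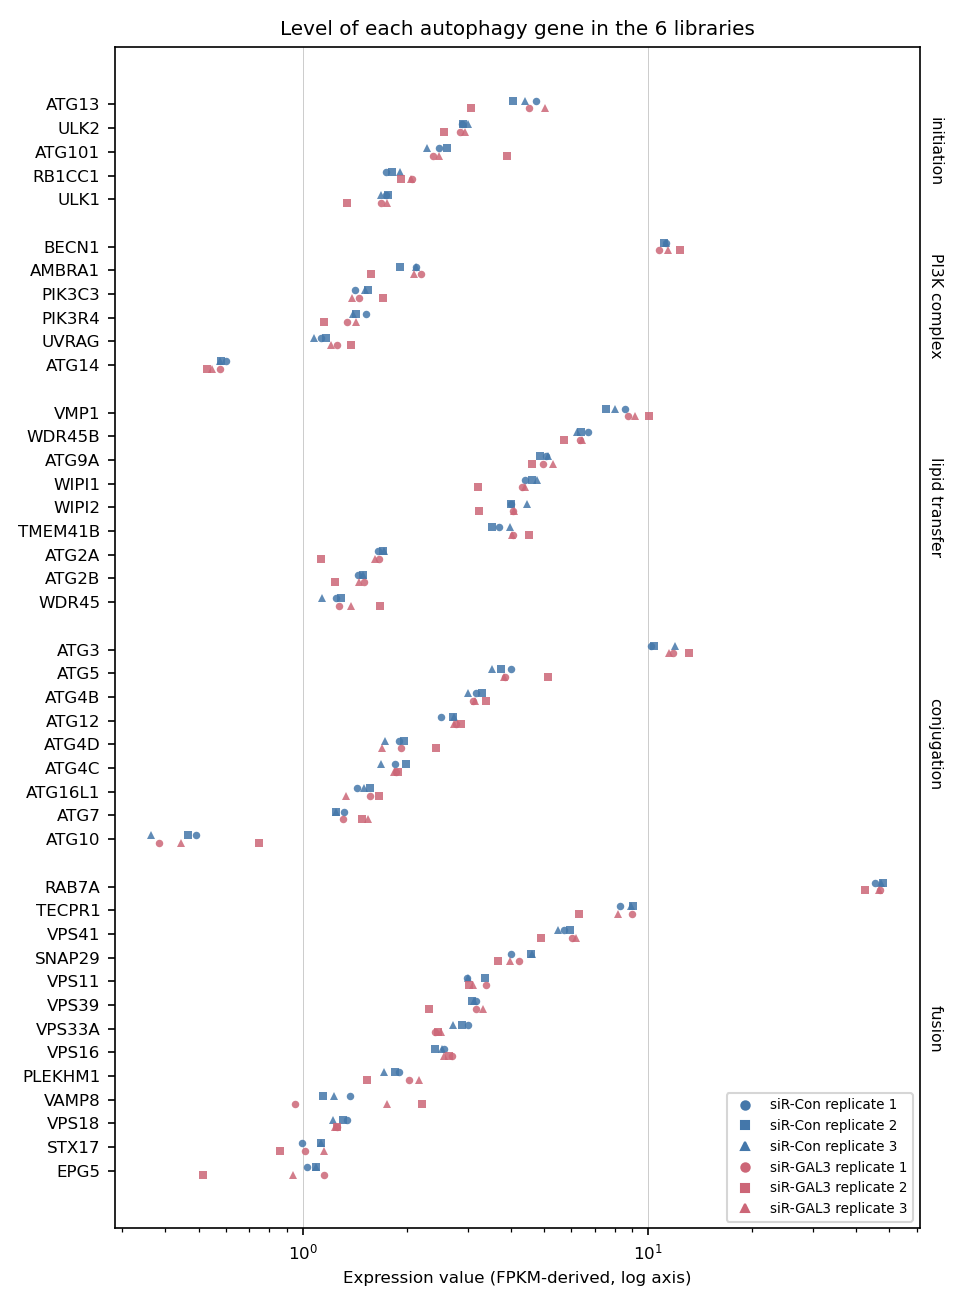
Expression value (derived from FPKM, log axis) of the 42 listed autophagy genes in each of the 6 libraries, grouped by step, with colours for the groups and a circle, square and triangle for replicates 1, 2 and 3. Most genes lie between 1 and 10 and the points of both groups lie close together, with RAB7A, ATG3 and BECN1 above the rest.

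Of the 42 listed members, 39 had a mean of at least 1 and were tested with limma on log2(value + 1), and ATG14, ATG10 and EPG5 were below this level. A difference on this scale understates the change of genes with low values. None of the 39 had a Benjamini-Hochberg adjusted p under 0.05 in limma (0.0% of all 8495 genes tested), and the lowest was 0.541. LGALS3, the silenced gene, did not reach this level either, with a log2 fold change of -2.91 (limma unadjusted p = 0.0462, adjusted p = 0.571). Its value of -1.64 in siR-GAL3 replicate 1 was set to 0 before the logarithm, and both the fold change and the p depend on this. The means of the deposited LGALS3 values were 64.8 ± 11.7 in siR-Con and 16.4 ± 17.1 (SD, n = 3) in siR-GAL3. A single member, VPS33A, had an unadjusted p under 0.05 and was lower in siR-GAL3, which is 1 of 39 against 8.66% of all genes tested in either direction and 4.25% lower. With the limit read as a log2 fold change, no member passed the criteria of the study's methods, an absolute value above 1 with an unadjusted p under 0.05. Of all genes tested 27, or 0.318%, did so. Taken on values not log-transformed, where the limit of 1 is a difference in expression units and not a fold change, 1.79% of all 17648 rows passed and VMP1, 1.27 units higher in siR-GAL3, was the 1 member among them. An adjusted p under 0.05 was reached by no member either without siR-GAL3 replicate 2, where 1.97% of all genes did so, with library sets as a block, which leaves out the lone siR-GAL3 replicate 2 in effect (1.25%), or with weights that let a more variable library count less (7.89%). An unadjusted p under 0.05 was reached by 3, 1 and 6 of the 39 members in these fits, against 16.3%, 13.8% and 26.6% of all genes.

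The data limited how large a difference could be. The 95% confidence interval of the log2 fold change lay within 0.5 of 0 on either side for 37 of the 39 tested members, and within 1 for all 39. The exceptions at 0.5 were VAMP8, with an upper limit of 0.61, and ATG101, with an upper limit just above 0.5. The lowest limit was -0.44, for TECPR1. With a pseudocount of 0.1, which gives more weight to low values, all 39 intervals again lay within 1 and 33 within 0.5, and the highest limit was 0.96, again for VAMP8. These intervals take the spread between libraries as deposited, after the authors' correction within groups.

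**Figure D2:**
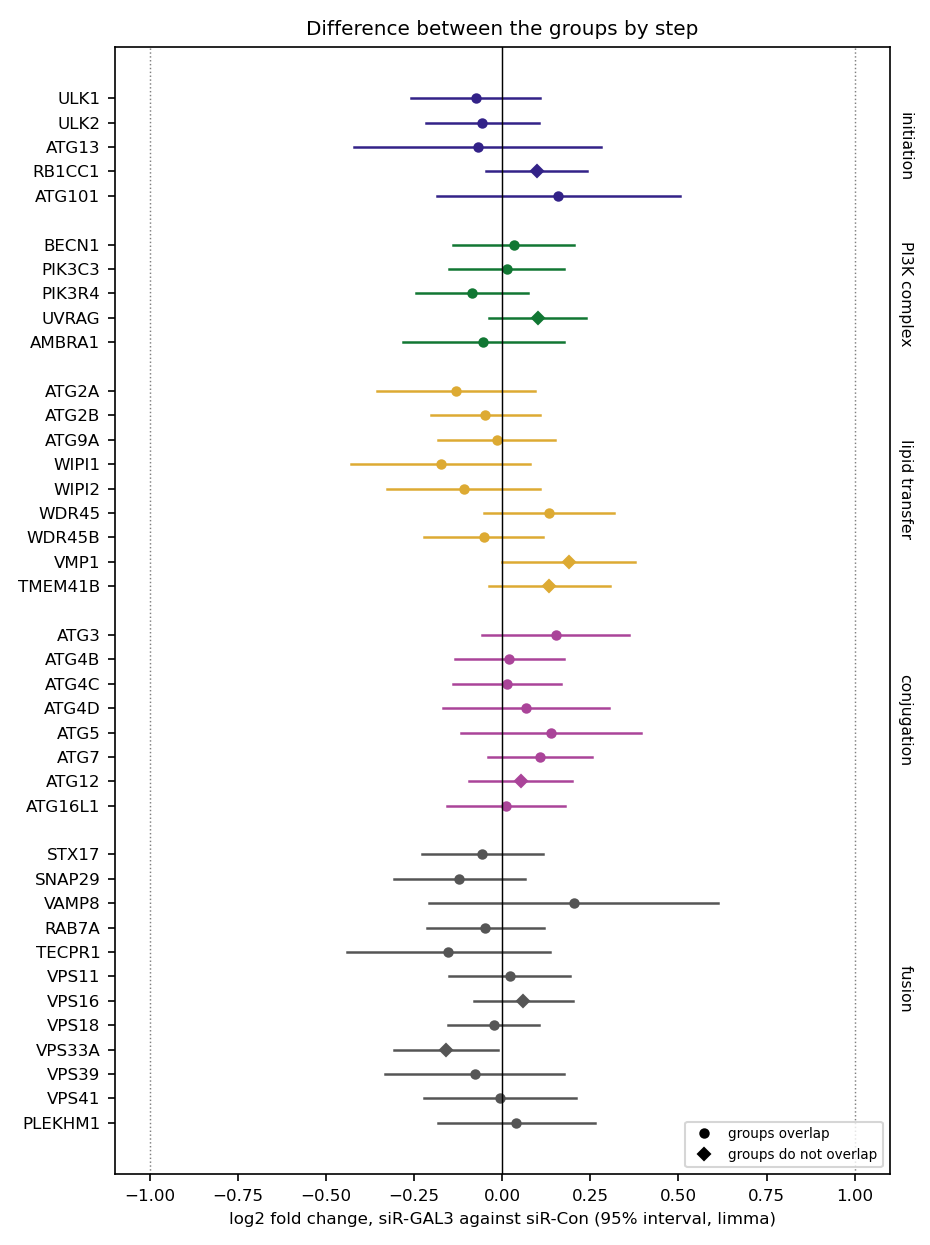
log2 fold change on the log2(value + 1) scale (siR-GAL3 minus siR-Con, points) with the 95% limma interval (bars) for the 39 tested autophagy genes, coloured by step, with diamonds where the groups did not overlap and dotted lines at -1 and 1. The interval of VPS33A lies wholly below 0, that of VMP1 reaches just past 0, and no interval reaches 1 in either direction.

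Counted over libraries rather than by a model, the groups did not overlap in 8 of the 42 listed members, which is 19.0% of them, against 16.9% of all rows and 20.5% of all genes tested. The siR-GAL3 group was higher in 6 of these, RB1CC1, UVRAG, VMP1, TMEM41B, ATG12 and VPS16, and lower in 2, ATG14 and VPS33A, against 9.01% and 7.86% of all rows. Each had an exact two-sided permutation p of 0.1, the smallest that 3 libraries against 3 allow. The share of members without overlap was thus near that of all genes. Without siR-GAL3 replicate 2 the groups did not overlap in 10 members, or 23.8%, against 28.6% of all rows and 33.7% of all genes tested.

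**Figure D3:**
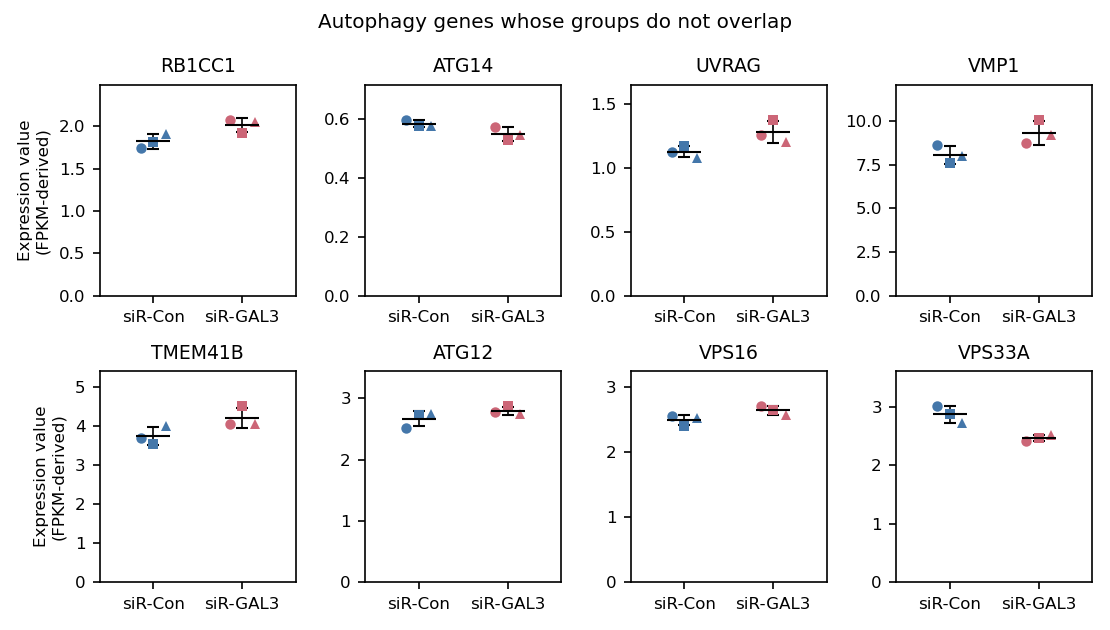
Expression values (derived from FPKM, linear axes from 0) in each of the 6 libraries for the 8 autophagy genes whose groups do not overlap, with a line and bars at each group's mean and SD and a circle, square and triangle for replicates 1, 2 and 3. The siR-GAL3 points lie above the siR-Con points in RB1CC1, UVRAG, VMP1, TMEM41B, ATG12 and VPS16 and below them in ATG14 and VPS33A.

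The genes of initiation encode the ULK complex, in which ULK1 and ULK2 are the alternative kinases and ATG13, RB1CC1 (FIP200) and ATG101 hold the complex together. ULK2 was higher than ULK1 in every library, and in the order of replicates 1, 2 and 3, kept for all genes, its values were 2.88, 2.92 and 3.00 in siR-Con and 2.86, 2.56 and 2.95 in siR-GAL3. ULK1 had a mean of 1.66 over the 6 libraries. Both had their lowest value in siR-GAL3 replicate 2.

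RB1CC1, the large scaffold of the complex, had values of 1.74, 1.81 and 1.91 in siR-Con and of 2.08, 1.92 and 2.05 in siR-GAL3. The means were 1.82 ± 0.0875 and 2.02 ± 0.0828 (SD, n = 3), a difference of 10.8% with no overlap between the groups. Its log2 fold change was 0.10 (standard error 0.06, limma adjusted p = 0.596), and the difference was 0.17 and 0.09 on the log2 scale within the library sets. Unlike its partners, RB1CC1 did not have its extreme value in siR-GAL3 replicate 2.

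ATG101, which stabilises ATG13, had values of 2.48, 2.61 and 2.29 in siR-Con and of 2.38, 3.90 and 2.48 in siR-GAL3. ATG13, the adaptor that links the kinases to the scaffold and the most abundant member of the complex, had values of 4.73, 4.06 and 4.39 in siR-Con and of 4.51, 3.07 and 5.03 in siR-GAL3. The groups overlapped in both genes. In siR-GAL3 replicate 2 the 2 genes departed in opposite directions, ATG101 being the highest and ATG13 the lowest of the 6 libraries, and the ATG101 share of the summed ULK complex was 30.5% there against 17.3% to 19.8% in the other libraries.

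The PI3K complex makes PI3P on the growing membrane. Its core is the lipid kinase PIK3C3 (VPS34), the regulatory subunit PIK3R4 (VPS15) and the scaffold BECN1 (Beclin 1), and either ATG14 or UVRAG joins the core, ATG14 in the form that acts on the forming autophagosome and UVRAG in the form of endosomes and later maturation. BECN1 stood far above its partners per length, with 79.2% ± 0.28 (SD, n = 3) of the summed core in siR-Con and 80.2% ± 1.0 in siR-GAL3. PIK3C3 had a mean of 1.5 and a log2 fold change of 0.012 (95% interval -0.15 to 0.17).

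BECN1 had values of 11.2, 11.1 and 11.3 in siR-Con. In siR-GAL3 its values were 10.7, 12.4 and 11.4, below all siR-Con libraries in replicate 1 and above them in replicates 2 and 3. The log2 fold change of 0.033 had a 95% interval of -0.14 to 0.20.

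UVRAG had values of 1.13, 1.17 and 1.08 in siR-Con and of 1.26, 1.38 and 1.21 in siR-GAL3, and its mean was 13.7% higher in siR-GAL3. Its log2 fold change was 0.10 (standard error 0.06, limma adjusted p = 0.590). ATG14 had values of 0.599, 0.579 and 0.577 in siR-Con and of 0.574, 0.529 and 0.545 in siR-GAL3, with a difference of -6.06% between the means. The alternative subunits thus lay on opposite sides without overlap between the groups, although the ATG14 values of siR-Con replicate 3 and siR-GAL3 replicate 1 were almost the same and ATG14 was too low to be tested. The UVRAG share of the sum of both was 65.3%, 66.9% and 65.2% in siR-Con and 68.7%, 72.3% and 68.9% in siR-GAL3. This ratio was formed after the values had been seen and is a description with no test.

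PIK3R4, the kinase-like regulatory subunit, had values of 1.52, 1.43 and 1.40 in siR-Con and of 1.35, 1.15 and 1.43 in siR-GAL3, and siR-Con replicate 2 and siR-GAL3 replicate 3 held exactly the same value, the only one that libraries shared among the 42 genes. AMBRA1, which ties BECN1 to the ULK complex, had values of 2.13, 1.91 and 2.13 in siR-Con and of 2.21, 1.57 and 2.09 in siR-GAL3. Both genes were lowest in siR-GAL3 replicate 2, and the groups overlapped.

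The lipid transfer genes encode ATG2A and ATG2B, which carry lipids to the growing membrane, the PI3P readers WIPI1, WIPI2, WDR45 (WIPI4) and WDR45B (WIPI3), which recruit them and the conjugation machinery, and the scramblases ATG9A, VMP1 and TMEM41B, which even out lipids between both leaflets. The scramblases were among the more abundant members, with mean levels of 8.69 for VMP1, 4.98 for ATG9A and 3.97 for TMEM41B, whereas ATG2A and ATG2B had means of 1.58 and 1.44. The scramblases of the endoplasmic reticulum, VMP1 and TMEM41B, were both higher in siR-GAL3 with no overlap. ATG9A, the scramblase of small Golgi-derived vesicles, had a log2 fold change of -0.02 (95% interval -0.18 to 0.15).

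VMP1 had values of 8.60, 7.57 and 8.0 in siR-Con and of 8.73, 10.1 and 9.18 in siR-GAL3. Its means were 8.06 ± 0.515 and 9.32 ± 0.682 (SD, n = 3), a difference of 15.7%. The log2 fold change was 0.19 (standard error 0.08, limma unadjusted p = 0.0508, adjusted p = 0.574). The highest siR-Con library and the lowest siR-GAL3 library were the replicate 1 libraries and lay close together, and the difference was 0.019 on the log2 scale in that library set and 0.21 in the other.

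TMEM41B had values of 3.70, 3.54 and 3.99 in siR-Con and of 4.05, 4.51 and 4.05 in siR-GAL3, a mean 12.3% higher. Its log2 fold change was 0.13 (standard error 0.07, limma adjusted p = 0.589), with 0.10 and 0.08 within the library sets. For both scramblases siR-GAL3 replicate 2 was the highest of the 6 libraries. Without it the log2 fold change was 0.14 for VMP1 and 0.09 for TMEM41B.

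WIPI1 had values of 4.39, 4.60 and 4.76 in siR-Con and of 4.30, 3.21 and 4.40 in siR-GAL3, where replicate 2 was far below the others. WDR45B, the most abundant PI3P reader, had values of 6.69, 6.38 and 6.23 in siR-Con and of 6.37, 5.71 and 6.44 in siR-GAL3. ATG2A, ATG2B and WIPI2 had log2 fold changes of -0.13, -0.05 and -0.11, and each was lowest in siR-GAL3 replicate 2. The groups overlapped in all of these, and the log2 fold change of WIPI1 was -0.18 (95% interval -0.43 to 0.08). WDR45 was the PI3P reader on the other side, with a log2 fold change of 0.13 (95% interval -0.05 to 0.32).

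Conjugation attaches ATG8 proteins to phosphatidylethanolamine in the membrane. ATG7 is the shared activating enzyme, ATG3 and ATG10 are the E2 enzymes that pass on ATG8 proteins and ATG12, ATG12, ATG5 and ATG16L1 form the complex that directs the last transfer, and the ATG4 proteases trim ATG8 proteins and release them again. All 8 tested members had a log2 fold change above 0, with a median of 0.060 and no adjusted p under 0.05. The median over all genes tested was -1.2e-05. With the library set as a block 5 of the 8 were above 0 with a median of 0.0086, and without siR-GAL3 replicate 2 the counts were also 5 of 8, with a median of 0.015. That library lay above the siR-Con mean in all 9 listed conjugation genes, against 53.2% of all genes tested, while the mean of siR-GAL3 replicates 1 and 3 did so in 55.6% of the 9 genes.

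ATG3, the E2 enzyme of ATG8 proteins, was the most abundant conjugation gene, with values of 10.2, 10.4 and 12 in siR-Con and of 11.8, 13.1 and 11.5 in siR-GAL3. ATG5, the partner of ATG12, had values of 4.0, 3.76 and 3.52 in siR-Con and of 3.86, 5.12 and 3.82 in siR-GAL3. Their log2 fold changes were 0.15 and 0.14, and siR-GAL3 replicate 2 was the highest library in both. For ATG5 the other siR-GAL3 libraries lay inside the siR-Con range.

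ATG7 had values of 1.31, 1.25 and 1.25 in siR-Con and of 1.31, 1.49 and 1.55 in siR-GAL3. Its mean was 1.27 ± 0.0376 in siR-Con and 1.45 ± 0.125 (SD, n = 3) in siR-GAL3, and the log2 fold change was 0.11 (standard error 0.06, limma adjusted p = 0.590). siR-GAL3 replicates 2 and 3 lay above all siR-Con libraries, and the replicate 1 libraries of both groups had nearly the same value. Unlike most of the step, ATG7 had its highest value in replicate 3 and not in replicate 2.

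ATG12, the ubiquitin-like protein joined to ATG5, was the conjugation gene with no overlap, with values of 2.52, 2.73 and 2.73 in siR-Con and of 2.78, 2.87 and 2.74 in siR-GAL3. The log2 fold change was 0.052 (limma adjusted p = 0.703), and within the library set that holds siR-GAL3 replicate 3 the difference was 0.0038 on the log2 scale. The groups were separated by less than the spread inside either of them. The proteases ATG4B, ATG4C and ATG4D had mean levels of 3.19, 1.85 and 1.94 and log2 fold changes of 0.02, 0.013 and 0.067. ATG16L1, which positions the complex on the membrane, had a log2 fold change of 0.011. ATG10, the E2 enzyme of ATG12, had the lowest level of all members.

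The fusion step holds the autophagosomal SNAREs STX17 and SNAP29 with the lysosomal SNARE VAMP8, the small GTPase RAB7A, the HOPS tether made of VPS11, VPS16, VPS18, VPS33A, VPS39 and VPS41, and the adaptors EPG5, TECPR1 and PLEKHM1. Of the 12 tested members 4 had a log2 fold change above 0 and 8 below, with a median of -0.036. The split turned with the library set as a block, to 8 above and 4 below with a median of 0.028, and was 6 and 6 without siR-GAL3 replicate 2, with a median of 0.019. siR-GAL3 replicate 2 was the lowest of the 6 libraries in 8 of the 13 listed fusion genes, against 35.1% of all genes tested.

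VPS33A, the Sec1/Munc18-type subunit of HOPS that binds SNAREs, had values of 3.01, 2.88 and 2.72 in siR-Con and of 2.41, 2.47 and 2.52 in siR-GAL3. Its means were 2.87 ± 0.143 and 2.46 ± 0.0526 (SD, n = 3), a difference of -14.2% from siR-Con. The log2 fold change was -0.16 (standard error 0.06, 95% interval -0.31 to -0.01, limma unadjusted p = 0.0374, adjusted p = 0.541). All siR-GAL3 libraries lay below all siR-Con libraries, siR-GAL3 replicate 2 lay between the other siR-GAL3 libraries, and the difference was -0.23 and -0.11 on the log2 scale in the library sets. The call at an unadjusted p under 0.05 held in 1 of 6 fits that left out a library, the one without siR-GAL3 replicate 2, and the unadjusted limma p ranged from 0.0164 to 0.128 over the 6, with log2 fold changes of -0.19 to -0.13.

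No other HOPS subunit was lower in siR-GAL3 without overlap. VPS16, the subunit that carries VPS33A in the complex, had values of 2.56, 2.41 and 2.52 in siR-Con and of 2.71, 2.66 and 2.57 in siR-GAL3, with no overlap and a log2 fold change of 0.06 (limma adjusted p = 0.666). The log2 fold changes of VPS11, VPS18, VPS39 and VPS41 were 0.02, -0.025, -0.079 and -0.0063, and their groups overlapped. The VPS33A share of the summed HOPS subunits was 16.0%, 15.2% and 15.0% in siR-Con and 12.7%, 14.8% and 13.3% in siR-GAL3, again with no overlap, and with no test because the ratio was formed after the values had been seen. VPS41, which binds the lysosomal membrane, was the most abundant subunit, with 30.6% of the sum in siR-Con.

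The stretch of 250 bases before the start of each gene was read from the RefSeq promoter table of rat assembly GRCr8, which held 39 of the 42 listed members. The expression files name no assembly, so the table was joined by gene symbol only. It was searched for the E-box CACGTG, for the CLEAR element, which is that E-box with GT before and AC after it and is known as a site of the lysosomal regulator TFEB, and for the forkhead element GTAAACA, on both strands. An E-box was found in 7 of the 39 members, or 17.9%, against 8.72% of the promoters of tested genes and 5.59% of all 33469 promoters in the table. The 39 include ATG10, ATG14 and EPG5, which were too low to be tested, so the sets compared are not alike. The 7 were 5 of the 13 fusion genes, EPG5, SNAP29, VPS11, VPS16 and VPS33A, and 2 of the 26 members of the other steps, ATG3 and ATG5. The full CLEAR element was found in EPG5, SNAP29 and VPS33A, against 0.599% of the promoters of tested genes, and the forkhead element in WDR45, against 1.74%. A match of letters is a description and says nothing of what binds there.

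The stretches before VPS33A and VPS16 are shown because these HOPS partners lay on opposite sides of siR-Con, and that before SNAP29 because it holds the same CLEAR element as VPS33A. Each is written 5′ to 3′ on the strand of its gene, ending at the base before the start, with the E-box in capitals.
VPS33A, chr12:38685274-38685523, plus strand: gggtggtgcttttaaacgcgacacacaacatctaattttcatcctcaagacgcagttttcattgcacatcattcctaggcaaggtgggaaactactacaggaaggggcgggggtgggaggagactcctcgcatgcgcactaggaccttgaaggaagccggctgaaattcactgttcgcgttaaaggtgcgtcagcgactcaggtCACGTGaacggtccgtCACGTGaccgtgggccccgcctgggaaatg
VPS16, chr3:138075460-138075709, plus strand: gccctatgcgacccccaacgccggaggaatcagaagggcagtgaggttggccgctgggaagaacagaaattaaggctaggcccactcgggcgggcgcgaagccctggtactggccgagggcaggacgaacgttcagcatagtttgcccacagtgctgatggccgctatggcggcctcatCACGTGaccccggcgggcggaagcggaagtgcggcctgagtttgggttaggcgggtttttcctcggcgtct
SNAP29, chr11:97113196-97113445, minus strand: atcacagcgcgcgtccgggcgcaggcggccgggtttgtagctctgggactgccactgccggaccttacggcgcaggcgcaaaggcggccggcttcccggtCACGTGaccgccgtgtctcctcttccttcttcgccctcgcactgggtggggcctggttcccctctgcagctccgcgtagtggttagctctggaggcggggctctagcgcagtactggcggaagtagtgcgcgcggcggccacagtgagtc
VPS33A holds a pair of E-boxes, which begin 46 and 30 bases before the start, and the one nearer to the start lies in the CLEAR element. The E-box of VPS16 begins 71 bases before the start, and that of SNAP29, which lies in the CLEAR element, is farther away. VPS33A and VPS16 both held the E-box. Their log2 fold changes were -0.16 and 0.06, and neither had an adjusted p under 0.05 in limma. Whether the E-box plays a part in the level of either gene was not tested.

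Among the SNAREs, VAMP8 had values of 1.37, 1.14 and 1.23 in siR-Con and of 0.952, 2.21 and 1.76 in siR-GAL3. Its mean was 31.3% higher in siR-GAL3, with a log2 fold change of 0.20 (95% interval -0.21 to 0.61, limma adjusted p = 0.638). The siR-GAL3 libraries lay on both sides of the siR-Con range, replicate 1 below it and replicates 2 and 3 above it. Without siR-GAL3 replicate 2 the log2 fold change was 0.046 (limma unadjusted p = 0.732), and without siR-GAL3 replicate 1 it was 0.40 (limma unadjusted p = 0.0050, adjusted p = 0.319), in a fit where 1249 of the 8495 genes had an unadjusted p under 0.05. Over all alternatives the adjusted p of VAMP8 ranged from 0.239 to 0.893. SNAP29 and STX17 had log2 fold changes of -0.12 and -0.056.

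RAB7A, the GTPase that recruits HOPS and PLEKHM1 to late endosomes and lysosomes, was the most abundant member, with values of 45.5, 47.9 and 47.3 in siR-Con and of 46.9, 42.5 and 46.7 in siR-GAL3. TECPR1, a tether that binds the ATG12-ATG5 conjugate, had values of 8.27, 9.05 and 8.92 in siR-Con and of 9.01, 6.30 and 8.20 in siR-GAL3. In both genes siR-GAL3 replicate 2 was the lowest library. EPG5, a RAB7A effector that stabilises the SNARE bundle, was named after its values were seen and had its lowest value there too, with 1.03, 1.09 and 1.09 in siR-Con and 1.15, 0.515 and 0.939 in siR-GAL3. PLEKHM1, the adaptor between RAB7A and HOPS, had a log2 fold change of 0.04 (95% interval -0.18 to 0.26) over all libraries and lay higher in siR-GAL3 by 0.06 and 0.19 on the log2 scale within the library sets.

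Across the steps, siR-GAL3 replicate 2 was the highest or the lowest of the 6 libraries in 35 of the 42 listed members, or 83.3%, against 76.7% of all genes tested, and the other libraries were extreme in 7 to 14 members each. The exceptions were RB1CC1, ATG4C, ATG7, VPS11, VPS16, VPS18 and VPS33A. Its median departure from the siR-Con mean on the log2 scale was 0.13 over the conjugation genes, -0.16 over the fusion genes, -0.15 over initiation and over lipid transfer, and 0.03 over the PI3K complex. Over siR-GAL3 replicates 1 and 3 the same medians lay between -0.021 and 0.0058. The median absolute departure of the 42 members was 0.17 in siR-GAL3 replicate 2 and 0.03 in the mean of replicates 1 and 3, against 0.23 and 0.06 for all genes tested.

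**Figure D4:**
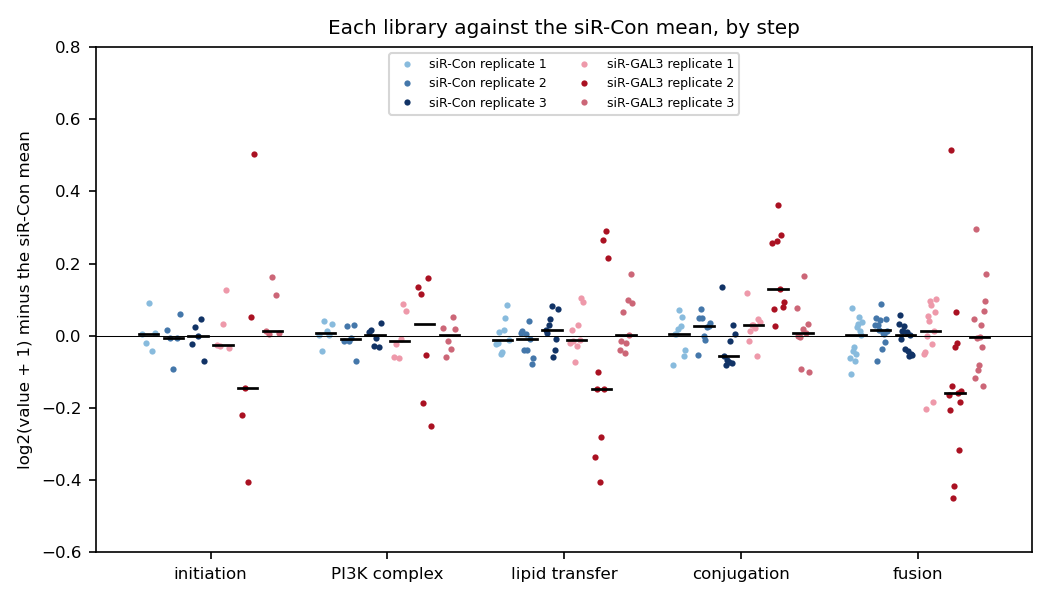
Departure of each of the 6 libraries from the siR-Con mean, on the log2(value + 1) scale, for the 42 listed autophagy genes by step, with 1 point a gene and a line at the median. In siR-GAL3 replicate 2 the conjugation genes lie above 0 and most fusion genes below it, whereas the medians of siR-GAL3 replicates 1 and 3 lie close to 0.

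The spread between libraries was larger in siR-GAL3 for most members. The median coefficient of variation, the SD over the mean, of the 42 members was 4.71% in siR-Con and 10.5% in siR-GAL3, against 5.36% and 13.2% over all genes tested, and 32 of the 42 had the larger value in siR-GAL3. Within the library sets, 13 members were higher in siR-GAL3 in both sets, 5 were lower in both, and 24 had opposite signs, which is 31.0%, 11.9% and 57.1% of the 42, against 25.6%, 28.4% and 45.7% of all genes tested. The members without overlap between the groups have the same sign in both sets by construction.

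The other genes of the pathway, in 8 lists, held 49 tested genes, of which 12 had a log2 fold change above 0 and 37 below. By limma 5 of the 49 passed an unadjusted p of 0.05, a share near the 8.66% of all genes tested, and 0 an adjusted one. The ATG8 proteins, the substrates of conjugation, had a log2 fold change above 0 in 4 of 5 genes, with a median of 0.10, none with an unadjusted p under 0.05. The nutrient-sensing kinases upstream of ULK1 were split 2 above and 7 below. The PI3K complex partners were split 2 and 4, the phosphatases and PI3P readers 1 and 2, the CORVET and VPS33B complexes 0 and 3, the genes of ATG9 traffic 0 and 6 and the cargo receptors 1 and 5. Splits of these lists are given over all 6 libraries only. The summed ATG8 level was 100.9 in siR-GAL3 replicate 2, the highest library, against 85.1 to 85.9 in siR-Con. That library had the lowest sum of every other list except ATG9 traffic and the cargo receptors. For the PI3K complex partners it was 34.5, against 44.0 to 46.6 in siR-Con.

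The fusion partners outside the machinery were split 2 above and 9 below, and held 4 of the 5 genes with an unadjusted p under 0.05. These were 4 of the 11 tested fusion partners, 2 of them higher and 2 lower in siR-GAL3. Of all genes tested, 4.41% passed this level as higher and 4.25% as lower. STX8, a late endosomal SNARE, had a mean of 2.12 ± 0.297 in siR-Con and 2.99 ± 0.579 (SD, n = 3) in siR-GAL3, with a log2 fold change of 0.35 and a limma unadjusted p of 0.0229. VTI1B, its SNARE partner, had means of 3.42 ± 0.350 and 4.14 ± 0.381, with a log2 fold change of 0.22 and a limma unadjusted p of 0.0454. Other SNAREs of the list lay on the other side, with log2 fold changes of -0.10 for STX7 and -0.05 for VAMP7, whose groups overlapped.

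RAB2B, a GTPase of autophagosome clearance, had means of 3.04 ± 0.139 and 2.58 ± 0.153, with a log2 fold change of -0.17 and a limma unadjusted p of 0.0368. PLEKHM2, which links lysosomes to kinesin, had means of 4.89 ± 0.132 and 4.10 ± 0.390, with a log2 fold change of -0.21 and a limma unadjusted p of 0.0291. The fifth was the cargo receptor OPTN, with means of 3.86 ± 0.148 and 3.31 ± 0.0699, a log2 fold change of -0.17 and a limma unadjusted p of 0.0275. Adjusted p-values of these 5 genes lay between 0.507 and 0.570.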

How the data were processed

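RNA sequencing values of 3 Glu + siR-Con and 3 Glu + siR-GAL3 libraries were used as deposited. The authors aligned reads with STAR, counted them per gene with HTSeq, converted counts to FPKM, and then applied batch removal, standardization and a correction of differences within groups. Tools for the last steps and the genome build are not given in the sources used here. The supplement describes polyadenylated RNA and the labels ribosomal depletion. The deposited values, 3.86% of them below 0, are therefore FPKM-derived and not counts.

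Values below 0 were set to 0 and log2(value + 1) was fitted with limma 3.58.1 (intensity trend, R 4.3.3) over 8495 genes with a mean of at least 1, with Benjamini-Hochberg adjustment. The fit was tested on simulated data with independent normal noise in each gene and library. These held no outlying library, no library sets and no correction within groups, so the test cannot speak to those features. Exact permutation tests and motif counts used Python 3.11.15 and NumPy 2.4.6. Members and lists were chosen with earlier results of these data known.

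Values of every library are given for members with an unadjusted p under 0.05 or no overlap, the 2 largest differences and 2 highest means of each step, and ATG7 and BECN1. Alternatives were another pseudocount, filter, scaling, trend, block, library weights, no logarithm and each library left out.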

Additional observations from a re-analysis of the deposited data

How the results depend on the processing

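No member had an adjusted p under 0.05 in any of the 16 alternatives. The number of members with an unadjusted limma p under 0.05 was 1 as reported, against 736 of 8495 genes. This number was 2 with no filter (1623 of 17648 rows), with median-ratio scaling (773 of 8495 genes) or with no intensity trend (734 of 8495). Among the 3 members with a mean of at least 10 it was 0 (121 of 1120 genes). It was 4 with values not log-transformed (1528 of 17648 rows) and 6 with library weights. With each library left out it was 0 to 3, where 344 to 1388 of 8495 genes passed. The 6 were ATG7, PLEKHM1, RB1CC1, SNAP29, VMP1 and VPS33A, against 26.6% of all genes, and the 3, without siR-GAL3 replicate 2, were PLEKHM1, RB1CC1 and VPS33A, against 16.3%. VPS33A had no unadjusted p under 0.05 without siR-Con replicates 1, 2 or 3 or siR-GAL3 replicates 1 or 3. On values not log-transformed, 1 member, VMP1, passed limits of 1 unit (1.27 units higher, not a log2 fold change) and an unadjusted p of 0.05, against 316 of 17648 rows. The groups did not overlap in 10 to 16 members with each library left out, where fewer libraries make this easier, or 23.8% to 38.1% of the 42, against 23.2% to 31.4% of all rows and 25.8% to 38.1% of all genes tested. The conjugation median was 0.15 with a mean of at least 10 (1 gene), 0.0086 when library sets were blocked and 0.013 with library weights, where 4 of 8 members were above 0, and the initiation median was 0.0073 with library weights. The medians of initiation, the PI3K complex, lipid transfer and fusion each took both signs over the alternatives, and the cause was not tested.

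Whether the replicate numbers pair the libraries is not known. Departures from the group means had correlations of -0.17, -0.07 and 0.044 between same-numbered libraries. Between siR-Con and siR-GAL3 libraries of the same library set they were -0.17, 0.013 and 0.044. With 3 libraries a group and siR-GAL3 replicate 2 far from the rest, such correlations cannot exclude pairing. With the replicate number as a block, 0 members had an unadjusted limma p under 0.05, against 543 of 8495 genes, and 6 of all genes had an adjusted p under 0.05. No library depth was known, so precision rests on the 3 libraries a group.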
